A study of Canis lupus familiaris with 20 samples.

Results

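Aminoacyl-tRNA synthetases, the enzymes that join each amino acid to its transfer RNA, were followed in dog retinas taken a week after injection of ciliary neurotrophic factor (CNTF) or of phosphate-buffered saline (PBS). The set held 35 genes chosen by name, of which 18 encode cytosolic enzymes, 15 mitochondrial ones and 2, GARS and KARS, enzymes that serve both compartments. Probes whose gene name or description gave a listed synthetase numbered 80 of the 43603 distinct probes of the array, and each gene was represented by its probe with the highest mean signal over the 20 arrays. That mean signal was the measured value used in the choice, and it drew on no contrast between groups. A probe was kept where some group had 4 or more of its 5 arrays well above background, which held for the chosen probes of 34 genes and for 29466 probes in all. The exception was LARS2, the mitochondrial leucyl enzyme, not well above background on any of the 20 arrays and without a value below.

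Each retina was measured on a single-colour array, with 5 arrays in each of 4 groups. CNTF mutant and PBS mutant arrays came from both eyes of 5 CNGB3m/m dogs, which carry the D262N missense change in CNGB3, a channel subunit gene of cone photoreceptors, and have an inherited day blindness. CNTF normal and PBS normal arrays came from both eyes of 5 dogs with normal cone function, of which 4 were CNGB3+/m carriers and dog 3 was CNGB3+/+. All dogs belonged to a research colony with a common background, and all right eyes received 12 µg of CNTF into the vitreous and all left eyes PBS. The sample labels give ages of 10.7 to 11.5 weeks for the mutants and 8.9 weeks for the normal dogs, whereas the study text gives about 11 months for both. Of the mutants, dogs 2, 3 and 5 were female, while all normal dogs were male, so the genotype comparisons are also comparisons of age label and, in part, of sex.

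Cytosolic synthetases charge the transfer RNAs that feed protein synthesis on cytoplasmic ribosomes, and several of them sit together in a multisynthetase complex held by scaffold proteins. Mitochondria use a second set of nuclear-encoded synthetases for the few proteins made on mitochondrial ribosomes. In human and mouse cells, shortage of amino acids activates the kinase GCN2 and the transcription factor ATF4, which drives many cytosolic synthetase genes, and tryptophanyl-tRNA synthetase is also a classic interferon gamma target.

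Probe sequences of 60 bases are shown for the genes on which the results turn, 5′ to 3′, with positions on canFam2. The first 2 are separate probes of AARS, the gene with the largest change, the next is the chosen probe of its mitochondrial counterpart AARS2, and the fourth is the probe named for EARS2 that stands beside the brighter chosen one. The pair of KARS probes overlap, with the 44 shared bases in capitals, and the last is the probe of IARS whose description names isoleucyl-tRNA synthetase. Whether each probe lies in an exon or an untranslated part was not assigned here, although the first AARS probe, AARS2 and IARS each matched over more than 60 bases of genome (417, 307 and 1173).
AARS, chr5:79308480-79308896, minus strand: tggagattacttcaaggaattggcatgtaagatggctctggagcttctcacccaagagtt
AARS, chr5:79295068-79295127, minus strand: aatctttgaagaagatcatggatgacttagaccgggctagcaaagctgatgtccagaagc
AARS2, chr12:15711295-15711601, minus strand: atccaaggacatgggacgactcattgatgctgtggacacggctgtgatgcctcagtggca
EARS2, chr6:25320035-25320094, plus strand: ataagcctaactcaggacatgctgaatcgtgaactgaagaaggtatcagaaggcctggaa
KARS, chr5:78193055-78193114, plus strand: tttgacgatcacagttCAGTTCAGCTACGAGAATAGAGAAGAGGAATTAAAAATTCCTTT
KARS, chr5:78193071-78193130, plus strand: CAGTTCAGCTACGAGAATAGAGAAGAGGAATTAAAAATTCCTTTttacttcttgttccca
IARS, chr1:102156074-102157246, plus strand: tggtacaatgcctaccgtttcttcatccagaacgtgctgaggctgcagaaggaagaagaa

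Between 52.0 and 71.9% of probes were above background on an array, and the 75th percentile of the signal ran from 291 to 592 intensity units. Array PBS mutant 2 stood apart, at 5.10 on the first principal component against -97.0 to -24.8 for the other PBS arrays, and values without this dog are given where they bear on a result. The 20 arrays lay on 5 slides of 4, and slides followed the groups closely. Slide 3 alone held both treatments. It carried CNTF normal 1 and 2 and PBS mutant 4 and 5, and a value within it therefore mixes treatment with genotype. All 9 photoreceptor markers with a probe passed the same filter, as retina should show, whereas the only red cell marker with a probe, SLC4A1, was not above background on any array.

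CNTF was followed by higher signal of cytosolic synthetase genes in normal dogs, led in both genotypes by AARS, the alanyl enzyme. Levels are given throughout as log2 signal relative to the array's 75th percentile, and changes as log2 differences, CNTF eye minus PBS eye of the same dog. A gene was called if limma's Benjamini-Hochberg adjusted p over all probes was under 0.05. Standard errors of the changes rest on a spread pooled over both genotypes, not on that of the named dogs alone. In mutant dogs 1 of 18 cytosolic genes rose and none fell, both dual-compartment genes were uncalled, and 1 of 14 mitochondrial genes fell and none rose. Of all probes tested, 28.9% were called in mutant dogs, 11.6% higher and 17.3% lower. In normal dogs 12 of 18 cytosolic genes rose and none fell, both dual-compartment genes rose, and 3 of 14 mitochondrial genes rose while 2 were called lower. One of those 2, MARS2, passed the filter on dim probes only through PBS normal eyes, so its call is a description. There 51.2% of all probes were called, 23.6% higher and 27.6% lower.

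The median change of the cytosolic genes was 0.16 in mutant dogs, where 16 of 18 were positive, and 0.44 in normal dogs, where 17 were. The median of the mitochondrial genes was -0.12 in mutant dogs and 0.10 in normal dogs, against -0.09 for all probes in each genotype. Mean level of the chosen probes ran from -0.16 (IARS) to 5.10 (AARS) for cytosolic genes and from -4.39 (MARS2) to 3.71 (VARS2) for mitochondrial ones. Many mitochondrial probes were thus dimmer, and compartment and signal level were not separated in this contrast. Within slide 3 the median difference, CNTF normal minus PBS mutant, was 0.00067 for the cytosolic genes, -0.14 for the mitochondrial ones and -0.06 for all probes. Among PBS eyes the cytosolic genes were themselves higher in mutants, by a median of 0.43, with none called. The slide 3 value mixes that difference with treatment, so it cannot show the rise of normal dogs by itself. AARS kept a large difference within the slide (1.65). With slide as a block and no dog block the cytosolic median was 0.02 in mutant dogs and 0.47 in normal dogs, and AARS in normal dogs was the only synthetase gene called. Retinas hold many cell types, and a change in the number of cells of a type cannot be told apart here from a change of RNA per cell.

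**Figure D1:**
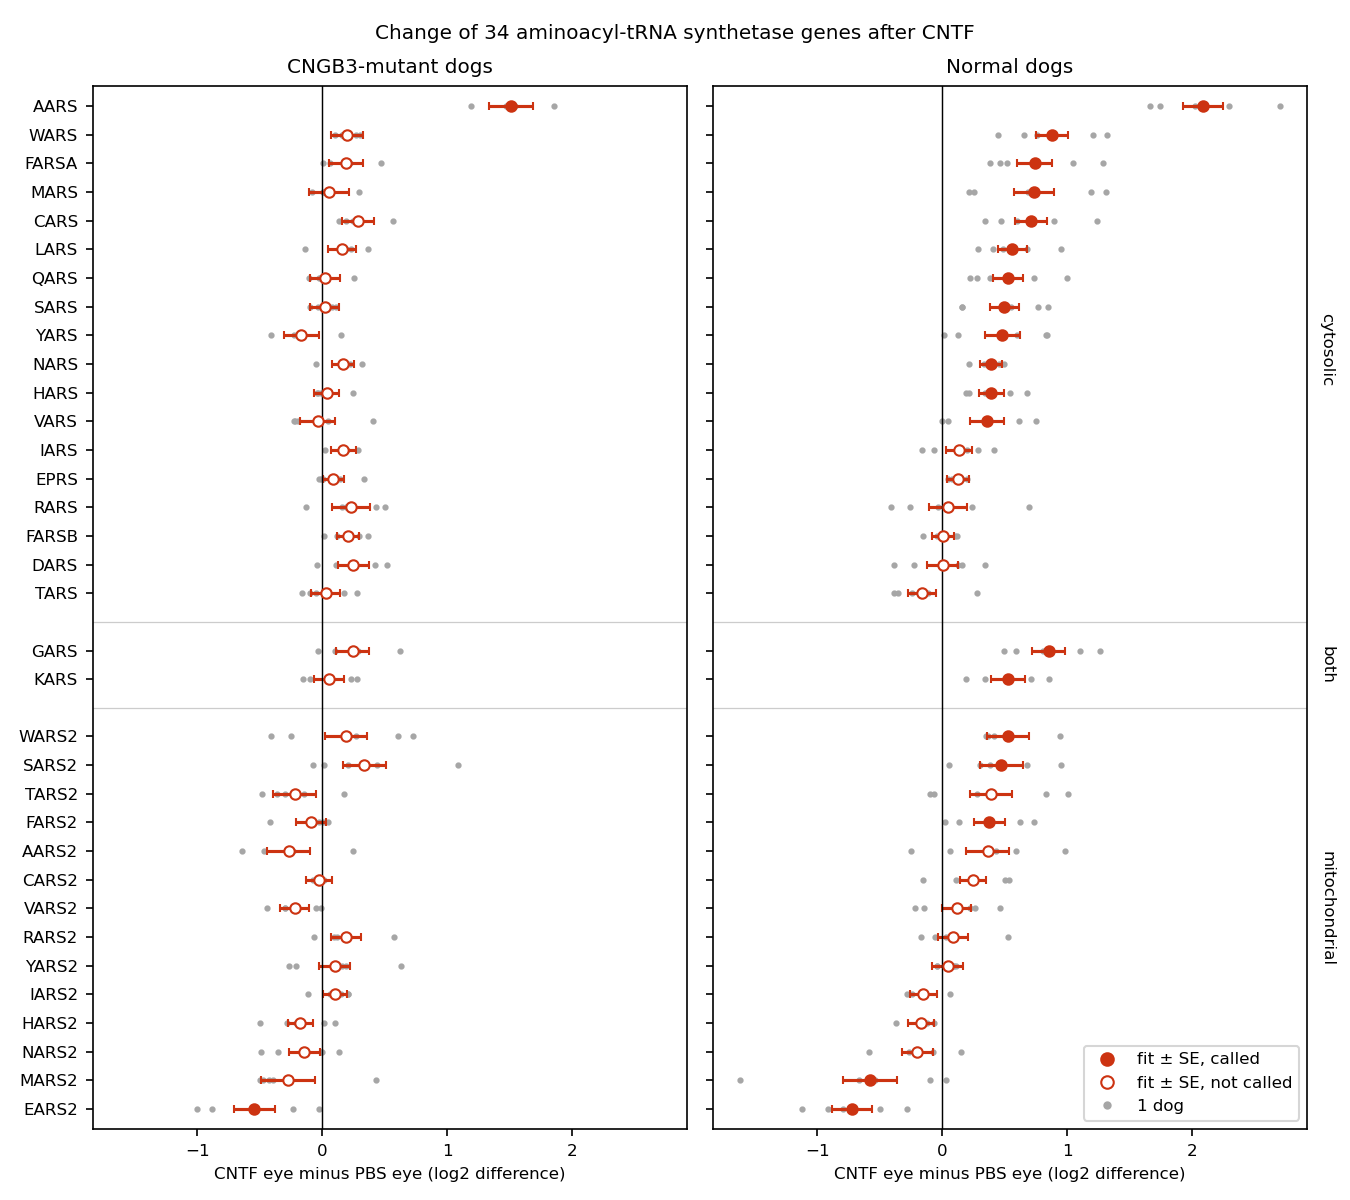
Change of 34 synthetase genes after CNTF (log2 difference, CNTF eye minus PBS eye), CNGB3-mutant dogs on the left and normal dogs on the right; grey points are single dogs, red points the fitted change with its standard error, filled where called. In mutant dogs AARS and EARS2 are filled, whereas in normal dogs 12 cytosolic genes, GARS, KARS and 3 mitochondrial genes are filled above 0 and EARS2 and MARS2 below.

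AARS had the largest change of the set. Its level was 6.06, 6.36, 5.84, 5.96 and 5.73 on CNTF arrays of mutant dogs 1 to 5, against 4.21, 5.17, 4.38 and 4.19 on PBS arrays of mutant dogs 1, 2, 3 and 5, the PBS spot of dog 4 being marked as an outlier and left out. In normal dogs it was 6.0, 5.68, 5.96, 5.70 and 6.38 in CNTF eyes, against 4.26, 4.02, 3.67, 3.68 and 3.68 in PBS eyes. Every CNTF array lay above every PBS array of either genotype, and PBS mutant 2 was the highest PBS array. Groups that did not overlap in this way were found for 6.81% of all probes in the higher and 7.81% in the lower direction in mutants, and for 13.9% and 15.9% in normal dogs, where 6 cytosolic genes (AARS, WARS, FARSA, LARS, SARS and NARS) and both dual-compartment genes did not overlap.

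The change of AARS was 1.51 ± 0.18 (SE, 4 dogs) in mutants, or 2.85-fold (adjusted p = 0.000147), and 2.08 ± 0.16 (SE, 5 dogs) in normal dogs, or 4.24-fold (adjusted p = 6.15e-06). Single dogs ranged from 1.19 to 1.85 in mutants and from 1.66 to 2.70 in normal dogs. Both AARS probes printed above gave the same picture with all 5 mutant dogs, the first at 1.52 ± 0.16 in mutants and 1.94 ± 0.16 in normal dogs, the second at 1.5 ± 0.14 in mutants and 2.0 ± 0.14 in normal dogs. All 4 AARS probes were called higher in each genotype, with changes between 1.46 and 1.52 in mutants and between 1.94 and 2.09 in normal dogs. Within slide 3 the difference was 1.65, from both CNTF normal arrays and PBS mutant 5, about as large as in the paired comparison.

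WARS, the tryptophanyl enzyme, had levels of 0.95, 1.34, 0.72, 1.09 and 0.71 on CNTF mutant arrays 1 to 5 and of 0.68, 1.18, 0.56, 0.79 and 0.61 on PBS mutant arrays 1 to 5. On CNTF normal arrays 1 to 5 it had 0.96, 0.78, 1.07, 0.83 and 1.24, against 0.51, 0.13, -0.25, 0.07 and 0.03 on PBS normal arrays. The normal groups did not overlap, while the mutant groups did although every mutant dog was higher in its CNTF eye. WARS rose in normal dogs by 0.88 ± 0.13 (1.84-fold, adjusted p = 0.000307) and was not called in mutants (0.20 ± 0.13, adjusted p = 0.273). Within slide 3 the difference was 0.17, and the low levels in PBS normal eyes were the group that stood apart.

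GARS, the glycyl enzyme that serves cytosol and mitochondria from a single gene, had levels of 3.72, 3.84, 3.27, 3.79 and 3.13 on CNTF mutant arrays 1 to 5 and of 3.09, 3.56, 3.17, 3.54 and 3.16 on PBS mutant arrays. In normal dogs it had 3.63, 3.30, 3.77, 3.36 and 3.84 in CNTF eyes, against 3.14, 2.71, 2.66, 2.56 and 2.58 in PBS eyes. As with WARS, the normal groups were apart and the mutant groups overlapped. GARS rose in normal dogs by 0.85 ± 0.13 (adjusted p = 0.000523) and was not called in mutants (0.25 ± 0.13, adjusted p = 0.194), with 0.12 within slide 3.

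FARSA, the catalytic alpha subunit of the cytosolic phenylalanyl enzyme, had levels of 0.19, 0.76, -0.10, 0.26 and -0.31 on CNTF mutant arrays 1 to 5 and of -0.28, 0.57, -0.10, 0.04 and -0.37 on PBS mutant arrays. In normal dogs it had 0.17, -0.06, 0.19, -0.05 and 0.60 in CNTF eyes, against -0.29, -0.45, -0.86, -0.57 and -0.68 in PBS eyes. The normal groups did not overlap. FARSA rose in normal dogs by 0.74 ± 0.14 (adjusted p = 0.00166), with 0.19 ± 0.14 in mutants (adjusted p = 0.343) and 0.22 within slide 3. FARSB, the beta subunit of the same tetramer, was not called in either genotype, at 0.20 ± 0.09 in mutants and 0.0039 ± 0.09 in normal dogs.

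MARS, the cytosolic methionyl enzyme and a member of the multisynthetase complex, had levels of 3.57, 4.21, 3.45, 3.85 and 3.12 on CNTF mutant arrays 1 to 5 and of 3.27, 4.21, 3.45, 3.79 and 3.21 on PBS mutant arrays. In normal dogs it had 3.58, 3.29, 3.89, 3.30 and 3.95 in CNTF eyes, against 3.37, 3.04, 2.58, 2.61 and 2.76 in PBS eyes. The normal groups overlapped through the high PBS eye of dog 1, although all 5 normal dogs were higher in the CNTF eye. MARS rose in normal dogs by 0.73 ± 0.16 (adjusted p = 0.00389), with 0.05 ± 0.16 in mutants (adjusted p = 0.837) and -0.06 within slide 3.

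**Figure D2:**
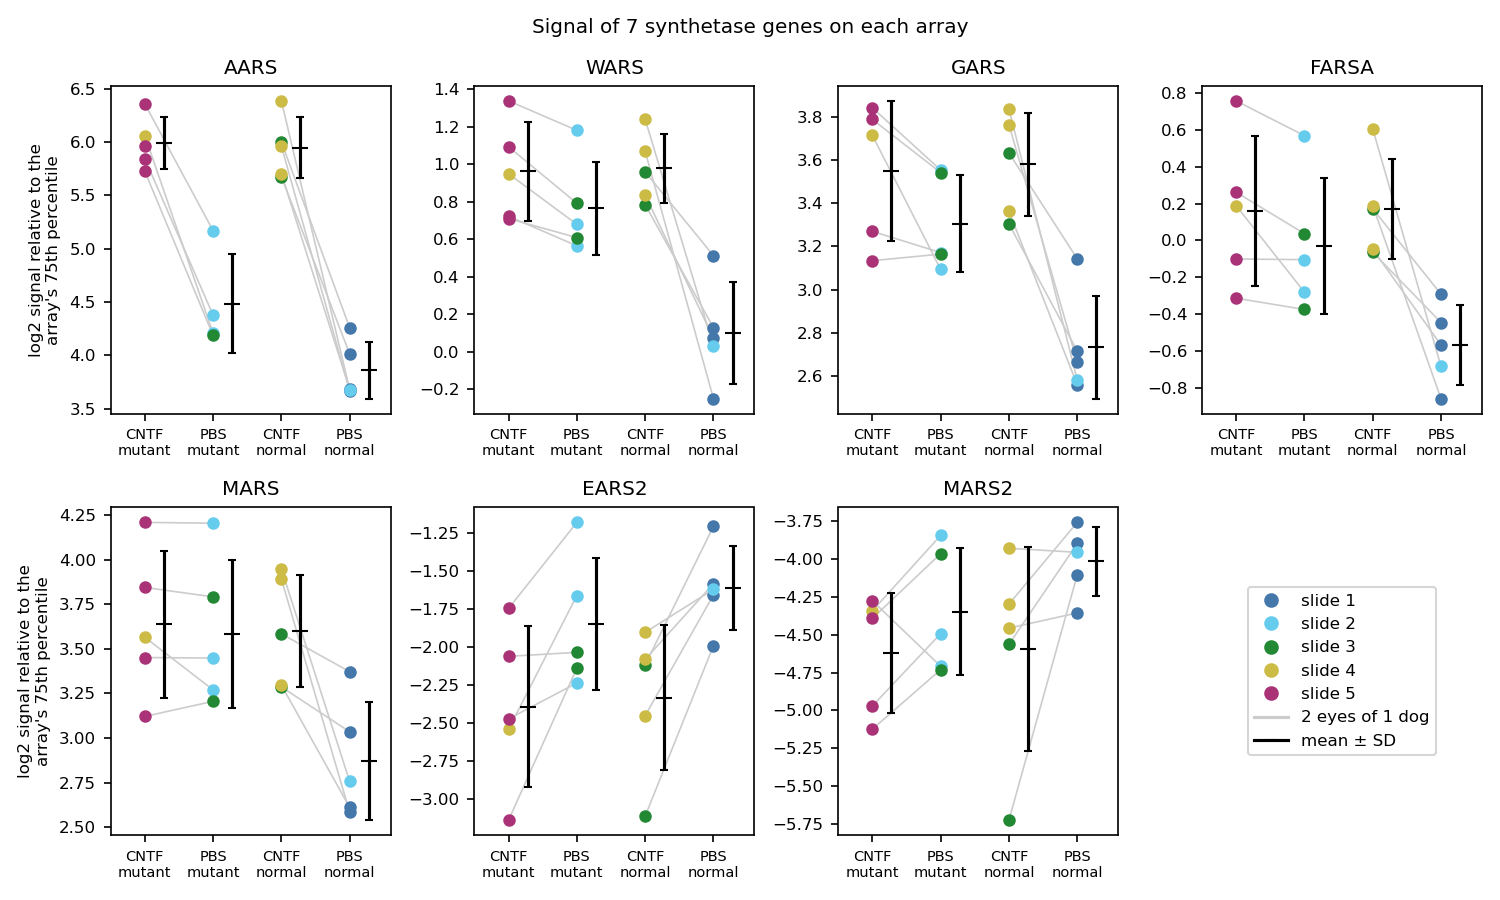
Signal of 7 synthetase genes on each array (log2 relative to the array's 75th percentile), coloured by slide; grey lines join both eyes of a dog and black bars give mean ± SD. AARS is higher on every CNTF array than on any PBS array, while WARS, GARS and FARSA differ mainly by their low level in PBS eyes of normal dogs.

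A further 8 cytosolic genes rose in normal dogs and were uncalled in mutants. CARS, the cysteinyl enzyme, changed by 0.29 ± 0.13 in mutants and by 0.71 ± 0.13 in normal dogs, LARS, the leucyl enzyme, by 0.16 and 0.56, and QARS, the glutaminyl enzyme, by 0.02 and 0.52. SARS, the seryl enzyme, changed by 0.02 in mutants and 0.49 in normal dogs, YARS, the tyrosyl enzyme, by -0.17 and 0.48, and NARS, the asparaginyl enzyme, by 0.17 and 0.39. HARS, the histidyl enzyme, changed by 0.03 in mutants and 0.39 in normal dogs, and VARS, the valyl enzyme, by -0.04 and 0.36. Adjusted p in normal dogs ran from 0.00139 for CARS to 0.0492 for VARS, and all 5 normal dogs moved upward in each of these genes except VARS (4 of 5). The call of VARS was lost in 14 of 19 alternative settings, and its other probes changed by 0.06 and -0.09 in normal dogs, not called. The rise of NARS was likewise seen with 1 of its 4 probes, the others having 0.03, 0.11 and 0.08 in normal dogs, not called. The chosen YARS probe was assigned through a homologue's description and place. Within slide 3, against PBS mutant eyes, HARS (-0.05), LARS (-0.03), QARS (-0.12), VARS (-0.23) and YARS (-0.21) were negative, as was MARS above.

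The other 6 cytosolic genes were called in neither genotype by their chosen probes. They were IARS (0.17 in mutants and 0.13 in normal dogs), EPRS, the fused glutamyl and prolyl enzyme (0.09 and 0.12), RARS, the arginyl enzyme (0.23 and 0.05), FARSB, DARS, the aspartyl enzyme (0.25 and 0.0020), and TARS, the threonyl enzyme (0.03 and -0.16). TARS was the only cytosolic gene with a negative change in normal dogs. The chosen EPRS probe was assigned by its description. The probe named EPRS had 0.19 in mutants, not called, and rose by 0.26 in normal dogs (adjusted p = 0.0339). The remaining EPRS probe was uncalled in both (0.16 and 0.15). The chosen probe of IARS carries the description of nucleolar protein 8, a neighbouring gene, so its target is uncertain. The IARS probe printed above changed by -0.40 in mutants and -0.06 in normal dogs, neither called.

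KARS, the lysyl enzyme that also serves both compartments, was measured in 4 normal dogs because the spot of PBS normal 5 was left out. It changed by 0.06 ± 0.12 in mutants and rose by 0.52 ± 0.13 in normal dogs (adjusted p = 0.00988). The second printed KARS probe, which shares 44 bases with the first and is thus no independent measure, gave 0.08 in mutants and 0.64 in normal dogs with all 5 dogs. Among the 8 synthetases of the multisynthetase complex (DARS, EPRS, IARS, KARS, LARS, MARS, QARS and RARS) none was called in mutants, with a median of 0.12, and 4 rose in normal dogs, with a median of 0.33. Among the 12 cytosolic or dual enzymes outside the complex, 1 rose in mutants, with a median of 0.18, and 10 rose in normal dogs, with a median of 0.49. Both families of catalytic fold were represented among the rises of normal dogs, with 7 of 9 class I and 7 of 10 class II genes called higher, EPRS holding a domain of each class and counted in neither.

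Among mitochondrial enzymes the changes ran in both directions. EARS2, the mitochondrial glutamyl enzyme, was called lower in both genotypes, as was no other member by its chosen probe. Its level was -2.54, -2.47, -1.74, -3.14 and -2.06 on CNTF mutant arrays 1 to 5, against -1.66, -2.23, -1.18, -2.14 and -2.03 on PBS mutant arrays. In normal dogs it was -2.11, -3.11, -2.45, -2.08 and -1.90 in CNTF eyes, against -1.20, -1.99, -1.65, -1.58 and -1.62 in PBS eyes. All 10 dogs were lower in the CNTF eye, although the groups overlapped. EARS2 fell by 0.54 ± 0.16 on the log2 scale in mutants (adjusted p = 0.0267) and by 0.72 ± 0.16 in normal dogs (adjusted p = 0.00413), with -0.53 within slide 3. Its call in mutants was lost in 6 of 19 alternative settings, among them leaving out mutant dog 1, 3 or 4, and the change was 0.0043 with normexp. The chosen probe was assigned to EARS2 through the description of a mouse homologue and its place within 50 kb of the gene's other probe. The printed probe, which the array design names EARS2, changed by -1.09 ± 0.12 in mutants (adjusted p = 6.3e-05) and by -0.61 ± 0.12 in normal dogs (adjusted p = 0.00222).

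MARS2, the mitochondrial methionyl enzyme, was dim. It was well above background on 2 of 5 CNTF mutant, 2 of 5 PBS mutant, 1 of 5 CNTF normal and all 5 PBS normal arrays. Its level was -4.34, -4.97, -4.28, -5.12 and -4.39 on CNTF mutant arrays 1 to 5, against -3.84, -4.49, -4.71, -4.73 and -3.96 on PBS mutant arrays. In normal dogs it was -5.73, -4.56, -4.30, -4.46 and -3.93 in CNTF eyes, against -4.10, -3.90, -3.76, -4.36 and -3.96 in PBS eyes. The groups overlapped, CNTF normal 1 was the lowest array, and 1 normal dog was not lower in its CNTF eye. It passed the filter only through PBS normal eyes, the group where it was high, so its lower call in normal dogs (adjusted p = 0.0448) was favoured by the filter and supports nothing. The measured differences, -0.27 in mutants (not called) and -0.58 in normal dogs, rest mostly on readings not well above background and are no sizes.

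The mitochondrial genes that rose in normal dogs were WARS2, the tryptophanyl enzyme (0.19 in mutants and 0.52 in normal dogs, adjusted p in normal dogs 0.0244), SARS2, the seryl enzyme (0.33 and 0.47, 0.0402), and FARS2, the phenylalanyl enzyme (-0.09 and 0.38, 0.0237). None was called in mutants. Both SARS2 probes carry the description of F-box protein 17, a neighbouring gene, and the second changed by -0.22 in mutants and -0.36 in normal dogs, so the value of SARS2 is uncertain. The remaining 9 were uncalled in both genotypes. Those were TARS2 (-0.22 in mutants and 0.39 in normal dogs), AARS2 (-0.27 and 0.36), CARS2 (-0.03 and 0.25), VARS2 (-0.22 and 0.11), RARS2 (0.19 and 0.08), YARS2 (0.10 and 0.04), IARS2 (0.10 and -0.15, with 4 normal dogs), HARS2 (-0.18 and -0.17) and NARS2 (-0.14 and -0.20). Their names give the amino acid as in the cytosolic symbols. The chosen TARS2 probe was assigned through a yeast homologue's description and place within 50 kb, and the probe named TARS2 fell by 0.34 in mutants (adjusted p = 0.018), with 0.04 in normal dogs. The second VARS2 probe fell by 0.46 in mutants (adjusted p = 0.00399), with -0.18 in normal dogs.

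Each amino acid offers a comparison of the cytosolic enzyme with its mitochondrial counterpart in the same dogs. In 15 such pairs, where FARSA and FARSB are both set against FARS2, the cytosolic gene changed more in 13 pairs in mutants, with a median difference of 0.25, and in 12 pairs in normal dogs, with a median difference of 0.36. In mutants this direction depended on the background correction, since the cytosolic minus the mitochondrial median over all genes was 0.28, and -0.051 with normexp. The alanyl pair had the widest gap, with AARS above AARS2 by 1.78 in mutants and by 1.72 in normal dogs. The glutamyl pair, EPRS and EARS2, differed by 0.63 in mutants and 0.85 in normal dogs. The methionyl pair is counted only as measured, because of the dim MARS2 probe. Cytosolic change was greater in every measured dog for 6 pairs in mutants and for 9 in normal dogs. The exceptions in mutants were the seryl and tyrosyl pairs (-0.32 and -0.27), and those in normal dogs were FARSB with FARS2 (-0.37), the arginyl pair (-0.04) and the threonyl pair (-0.55). Because the seryl value rests on the uncertain SARS2 probe, the count holds it only as measured. The same holds for the isoleucyl pair (0.07 in mutants and 0.28 in normal dogs), since the target of the chosen IARS probe is uncertain. The IARS probe described as isoleucyl-tRNA synthetase changed by -0.40 in mutants, below IARS2 (0.10). In normal dogs that probe changed by -0.06, above IARS2 (-0.15).

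Within single dogs the median change of the 18 cytosolic genes minus that of the 14 mitochondrial genes was 0.33, 0.19, 0.34, 0.12 and 0.0037 in mutant dogs 1 to 5, with AARS lacking in mutant dog 4 and IARS2 in normal dog 1. In normal dogs 1 to 5 it was 0.32, 0.19, 0.56, 0.20 and 0.56. All 10 values were above 0, and the ranges of the genotypes overlapped. The cytosolic median itself ran from -0.0034 to 0.24 in mutants and from 0.21 to 0.79 in normal dogs, and in mutant dog 5 the cytosolic genes other than AARS moved both ways, from -0.41 for YARS to 0.29 for FARSB. Across genes the changes in mutants and in normal dogs, which are different animals, had a Pearson correlation of 0.75 over 34 genes. It was 0.52 without AARS, -0.04 over the 17 cytosolic genes without AARS and 0.58 over the 14 mitochondrial genes, MARS2 and SARS2 included. The sign of the change was the same in both genotypes for 14 of those 17 cytosolic genes and for 8 of the 14 mitochondrial ones.

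**Figure D3:**
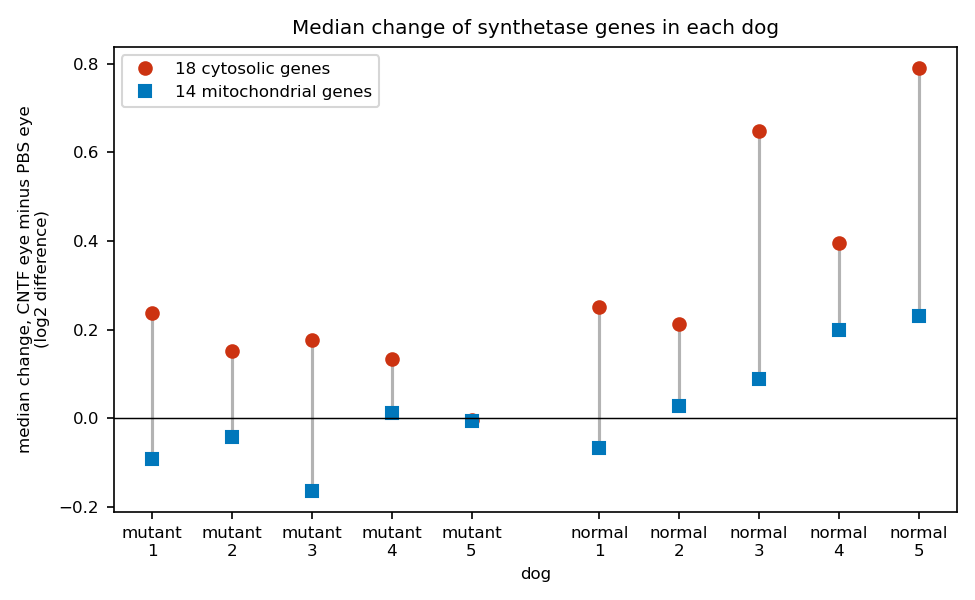
Median change after CNTF (log2 difference, CNTF eye minus PBS eye) of 18 cytosolic genes (circles) and 14 mitochondrial genes (squares) in each dog, mutant dogs on the left and normal dogs on the right; grey lines join both medians of a dog. The circle lies above the square in every dog, by 0.0037 to 0.34 in mutants, where in mutant dog 5 they coincide, and by 0.19 to 0.56 in normal dogs.

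Whether the CNTF change depended on genotype was tested as the difference of both changes, mutant minus normal. By limma no synthetase gene was called, and 0% of all 29334 probes were. At unadjusted p under 0.05 there were 15 of 34 synthetase genes (44.1%), against 10162 of all probes (34.6%), and by cytosolic and mitochondrial sets 10 of 18 and 3 of 14. The median difference was -0.40 for cytosolic genes, -0.07 for mitochondrial genes and -0.06 for all probes. The largest were those of WARS (-0.68, 95% interval -1.07 to -0.29), MARS (-0.68, -1.18 to -0.18) and YARS (-0.65, -1.08 to -0.21), each with an adjusted p of 0.103. AARS differed by -0.57 (-1.10 to -0.05, adjusted p = 0.126), so its rise was 0.57 smaller in mutants without passing the test.

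Genotypes were also compared within each kind of eye. In PBS eyes no synthetase gene was called, while 0.0272% of all probes were (8 of 29422), 0.0102% higher and 0.017% lower. The cytosolic median, mutant minus normal, was 0.43, with 15 of 18 genes positive, that of the mitochondrial genes 0.13 and that of all probes 0.0081. At unadjusted p under 0.05 there were 17 of 34 synthetase genes (50%), 12 of them cytosolic, against 34.6% of all probes. MARS (0.71 ± 0.22), WARS (0.67 ± 0.17) and AARS2 (0.64 ± 0.21) had the largest differences, each with an adjusted p of 0.0953. WARS and LARS had groups that did not overlap, as was the case for 3.04% of probes in that direction and 2.28% in the other. LARS had a mean level of 0.45 ± 0.12 in PBS mutant eyes and -0.02 ± 0.19 in PBS normal eyes (SD, n = 5 each).

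This comparison turned on a single dog. Without normal dog 1, 13 synthetase genes were called higher in PBS mutant eyes, 8 cytosolic ones, GARS and 4 mitochondrial ones, and 21.4% of all probes were called, 13.6% higher. MARS (0.84 ± 0.21), AARS2 (0.78 ± 0.18) and WARS (0.77 ± 0.15) then led. Without mutant dog 2, whose PBS array stood apart, the cytosolic median was 0.34 and no synthetase gene was called. In males alone it was 0.39, with none called. In CNTF eyes no synthetase gene was called or under 0.05 unadjusted, against 0.00681% and 5.6% of all probes, and the medians were 0.04 for cytosolic and -0.02 for mitochondrial genes.

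Set against the mean of PBS normal eyes, the median of the 17 cytosolic genes other than AARS ran from 0.25 to 0.76 on CNTF mutant arrays, from 0.19 to 0.72 on PBS mutant arrays, from 0.20 to 0.59 on CNTF normal arrays and from -0.11 to 0.26 on PBS normal arrays. The PBS eyes of normal dogs 2 to 5 were lower than all other eyes, PBS normal 1 lay within the range of the other groups, and the other 3 groups overlapped. On slide 2, which held PBS eyes only, PBS mutant 1, 2 and 3 had 0.19, 0.72 and 0.26, against -0.11 for PBS normal 5. For the 14 mitochondrial genes all 4 groups overlapped, with group medians of 0.07, 0.16, 0.16 and 0.01 in the same order. Since 4 of 5 PBS normal arrays made up slide 1 alone, their level and that slide cannot be told apart. PBS normal 5 (-0.11) was a single array on slide 2, and the part of the slides in these levels was not tested.

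**Figure D4:**
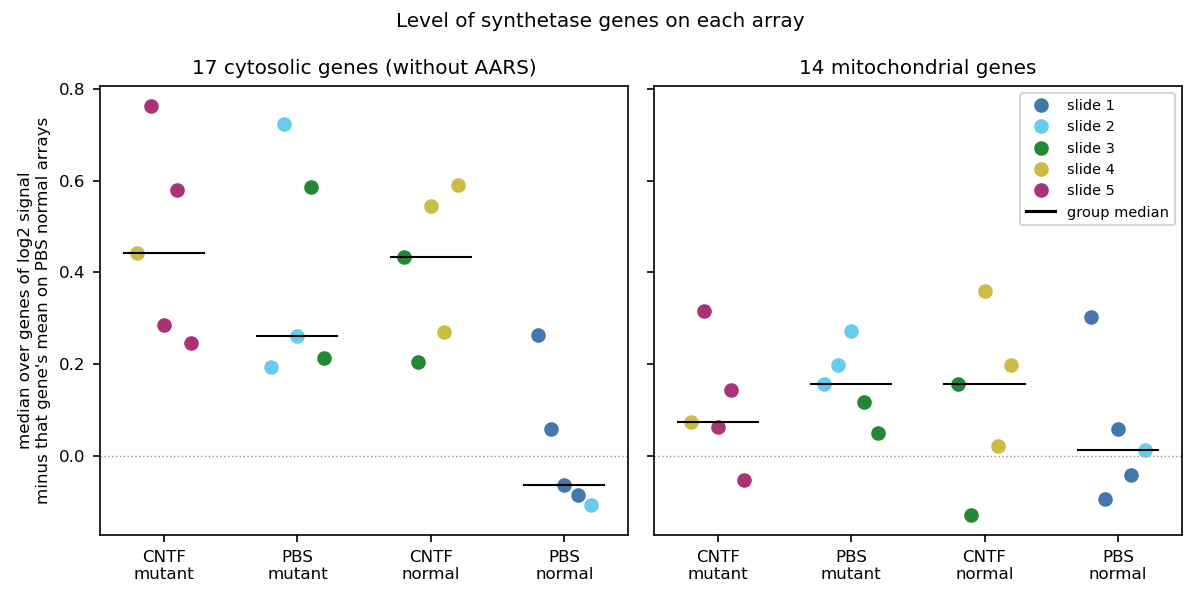
Median level of 17 cytosolic genes without AARS (left) and of 14 mitochondrial genes (right) on each array, as log2 signal minus the gene's mean on PBS normal arrays, coloured by slide; black lines are group medians. In the left panel 4 of 5 PBS normal arrays lie below all others, while PBS normal 1, at 0.26, overlaps the other groups; in the right panel all groups overlap.

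Probes of the same gene did not always move together. Among 25 genes with several probes above background, all probes had the same sign for 14 genes in mutants and for 18 in normal dogs. VARS had probes from -0.09 to 0.36 in normal dogs, and HARS had probes from -0.30, called lower, to 0.03 in mutants. DARS and IARS had probes of both signs in both genotypes. With the mean of a gene's probes in place of its brightest, 1 cytosolic gene rose and 1 fell in mutants, and 10 cytosolic genes rose in normal dogs. No run of bases longer than 11 was shared by probes of different synthetases, over 3090 pairs.

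Other genes of translation and amino acid supply were read from lists. Of all probes, 11.6% were called higher and 17.3% lower in mutants, and 23.6% and 27.6% in normal dogs. List and marker counts below stand beside these shares. Of 18 amino acid response genes tested, 4 rose and 4 fell in mutants, with a median of -0.05, and 6 rose and none fell in normal dogs, with a median of 0.27. ASNS, asparagine synthetase, rose by 1.58 ± 0.15 in mutants and by 2.10 ± 0.15 in normal dogs, NUPR1, a stress-induced nuclear protein, by 0.90 and 1.33, and SHMT2, the mitochondrial serine hydroxymethyltransferase, by 0.63 and 1.08. The mRNA of the transcription factor ATF4 itself fell by 0.48 in mutants and was uncalled in normal dogs (-0.08). DDIT3, a further stress transcription factor, fell by 0.94 in mutants, with -0.36 in normal dogs, not called. In mutants members of the list moved both ways, and its median within slide 3 was -0.03.

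Among kinases and phosphatase subunits acting on eIF2alpha, 1 of 6 (EIF2AK2) was called higher and 1 lower in mutants, and 1 fell in normal dogs. EIF2AK4, which encodes GCN2, had 0.17 in mutants, uncalled, and fell by 0.36 in normal dogs. EIF2AK2, the interferon-induced kinase PKR, was called higher in mutants (adjusted p = 0.0027). In normal dogs it had 0.92 ± 0.41 (adjusted p = 0.0769). It was well above background on 4 CNTF normal, 3 PBS normal, 3 CNTF mutant and no PBS mutant arrays. It passed the filter only through CNTF normal eyes, so higher values after CNTF were favoured by the filter. Its call in mutants and its part in the count above support nothing, and no size is given for mutants. EIF2AK1, the haem-regulated kinase, was uncalled in both (-0.02 and 0.24).

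Cytosolic elongation and initiation factors rose for 3 of 12 genes in mutants, with 1 lower, and for 8 of 12 in normal dogs, with 1 lower. Their medians were 0.14 and 0.49, with 0.04 within slide 3. EEF1B2, an exchange factor of elongation factor 1, rose by 0.48 in mutants and 0.76 in normal dogs, EIF4EBP1, a repressor of cap-dependent initiation, by 0.55 and 0.74, and EEF1A1, which delivers charged transfer RNA to the ribosome, by 0.26 and 0.53. Of the scaffold genes of the multisynthetase complex none was called in mutants and 1 of 3 rose in normal dogs. That was AIMP2 (0.02 in mutants and 0.62 in normal dogs), while EEF1E1 (0.26 and -0.16) and AIMP1 (0.55 and -0.16) were uncalled.

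Of mitochondrial translation factors 1 of 9 was higher in mutants, and 3 were higher and 3 lower in normal dogs, near the shares of all probes. TUFM, the mitochondrial elongation factor Tu, changed by 0.00054 in mutants and rose by 0.68 in normal dogs, and TSFM, its exchange factor, by 0.17 and 0.79. MTRF1, a release factor, had -0.19 in mutants and fell by 0.45 in normal dogs. Of the 3 genes that make mitochondrial glutaminyl-tRNA by amidation, none was called in mutants and QRSL1 fell by 0.56 in normal dogs (-0.09 in mutants). GATC had 0.12 in mutants and 0.17 in normal dogs, and GATB 0.12 and 0.11.

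Of 5 further genes of aminoacylation or tRNA proofreading, 2 rose and 2 fell in mutants and 2 rose in normal dogs. DTD1, a deacylase of misacylated tRNA, rose by 0.40 in mutants and 0.58 in normal dogs, and AARSD1, an editing protein for alanyl-tRNA, had 0.08 in mutants and rose by 0.23 in normal dogs. Genes of tRNA export, processing and modification were 1 higher and 3 lower of 12 in mutants, and 1 higher and 5 lower in normal dogs. TSEN54, a subunit of the tRNA splicing endonuclease, rose by 0.50 in mutants and 1.02 in normal dogs. ELAC1, a tRNA 3′ processing enzyme, had -0.08 in mutants and fell by 0.38 in normal dogs.

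Interferon gamma response genes, a list to which WARS is related as background, rose for all 6 of 6 tested in both genotypes, with medians of 2.65 in mutants and 3.33 in normal dogs and 2.75 within slide 3. TAP1, a peptide transporter of antigen presentation, rose by 3.76 in mutants and 4.46 in normal dogs, PSMB8, an immunoproteasome subunit, by 4.30 and 4.51, and PSMB9, another, by 3.24 and 4.17.

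Marker genes of other cells moved with CNTF as well. Microglia and macrophage markers rose for 7 of 8 genes in mutants and 8 of 8 in normal dogs, and the log2 of their summed signal ran from 4.12 to 4.74 in CNTF mutant, from 2.58 to 3.09 in PBS mutant, from 4.05 to 4.65 in CNTF normal and from 2.11 to 2.50 in PBS normal eyes. CSF1R, a macrophage growth factor receptor, rose by 2.55 in mutants and 3.12 in normal dogs, TYROBP by 3.43 and 4.19, and LAPTM5 by 3.21 and 4.27. Photoreceptor markers fell for 8 of 9 genes in mutants and 4 of 9 in normal dogs, and their summed signal ran from 8.79 to 9.37 in CNTF mutant, from 9.12 to 10.2 in PBS mutant, from 8.72 to 9.45 in CNTF normal and from 9.03 to 9.64 in PBS normal eyes. ARR3, cone arrestin, fell by 4.09 in mutants and 3.09 in normal dogs, and CNGA1, a rod channel subunit, by 1.85 and 2.12. CX3CR1, a microglial chemokine receptor, was well above background on none of the 10 PBS arrays and on 4 of 5 CNTF arrays of each genotype. It passed the filter only through CNTF eyes, so its part in the counts and summed signal above was favoured by the filter and supports nothing. The other markers of both lists were above background on 3 or more arrays of every group.

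Of 6 Müller glia markers, 2 rose and 2 fell in mutants, and 4 rose and 1 fell in normal dogs, with summed signal from 7.0 to 7.93 in CNTF mutant, 6.96 to 7.46 in PBS mutant, 7.37 to 7.73 in CNTF normal and 6.48 to 7.18 in PBS normal eyes. APOE rose by 1.36 in mutants and 1.79 in normal dogs, SLC1A3, a glutamate transporter, had 0.20 in mutants and rose by 0.72 in normal dogs, and GLUL, glutamine synthetase, fell by 1.96 and 0.96. Of 4 T cell markers 2 were called higher in each genotype, CD3D among them. CD3D, a chain of the T cell receptor complex, was well above background on 4 of 5 CNTF mutant, no PBS mutant, 5 of 5 CNTF normal and 1 of 5 PBS normal arrays. It passed the filter only through CNTF eyes, so its higher call in both genotypes was favoured by the filter and supports nothing. No size is given against readings that were mostly not above background. LCK had 0.47 in mutants and rose by 0.69 in normal dogs, and CD3E was uncalled (0.06 and -0.31). Summed T cell signal ran from -0.36 to 0.43 in CNTF mutant, -1.05 to -0.44 in PBS mutant, -0.23 to 0.75 in CNTF normal and -0.66 to -0.38 in PBS normal eyes. That sum includes CD3D, so its difference between CNTF and PBS eyes was favoured by the filter too and supports nothing. CD2 and CD3G were above background on no PBS array.

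Of 6 retinal pigment epithelium markers 1 fell in mutants and 2 in normal dogs, with summed signal between 6.79 and 7.46 over all groups. BEST1 fell by 1.48 in mutants and 1.24 in normal dogs, and MITF was uncalled (-0.21 and -0.41). TYRP1 was called lower in normal dogs and was uncalled in mutants. It passed the filter only through PBS normal eyes (5 of 5 arrays, against 3 in each other group). Its lower call was thus favoured by the filter and supports nothing, and no size is given. The part of any of these cell markers in the synthetase changes was not tested.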

How the data were processed

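Retinal RNA of 20 eyes was measured on single-colour arrays. Per the file headers, spot intensities are the output of Agilent Feature Extraction 9.5.3.1 after background subtraction, without scaling between arrays. The submitters' processing notes also list Partek 6.4. The authors' deposited matrix holds log2 values with a median of 6.18 on every array. Set against the array files it was neither centred per gene nor turned in direction. The method of its scaling is not named in the sources used here, and it served only as an alternative.

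Control spots and outlier spots were dropped, spots of a probe were averaged, and each array's 75th percentile was subtracted from log2 processed signal. Probes were kept where 4 or more arrays of some group of 5 were well above background. CNTF was tested with limma 3.58.1 (R 4.3.3), dogs blocked and CNTF fitted separately per genotype, genotypes on 10 arrays without covariates, two-sided, with Benjamini-Hochberg adjustment over probes. Figures used Python 3.11.15 and matplotlib 3.10.9. A probe needed 3 arrays per group. Scripts were tested on simulated data.

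Both eyes of a dog were paired by the labels; deviations of paired arrays from group means correlated at -0.15 to 0.69 over 27888 probes. Replicates are separate dogs, so p-values of the CNTF comparisons measure the spread between these dogs, pooled over both genotypes. Those of the genotype comparisons measure the spread between dogs within a kind of eye. Slides were read from the array files. Every measured member is named, with array values for the 5 largest rises and the falls among called members, and of other lists the first 3 by adjusted p in normal dogs, a few of which are not reported here. Members and lists were chosen with earlier results of these data known. Gene names came from the files and RefSeq's table of UU_Cfam_GSD_1.0. Alternatives were other background correction, normalization and filters, the deposited values, slide as a block, no dog block, the mean of a gene's probes and leaving out each dog. Arrays give no counts, so their number limits the precision.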

Additional observations from a re-analysis of the deposited data

Results flagged for a closer look

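In 7 of 136 groups of 5 arrays a single array lay farther from its nearest neighbour than Dixon's 95% limit allows, and chance gives about 1 in 20, or 6.8. On PBS normal 1 the level of CARS was 1.73 (next array 1.28), that of HARS 2.77 (2.50) and that of GARS 3.14 (2.71). On CNTF normal 3 FARSB was low at 1.79 (next 2.03). On PBS mutant 3 NARS was low at 2.92 (3.13) and NARS2 at -2.99 (-2.59). On PBS mutant 2 CARS2 was high at 1.49 (1.03).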

How the results depend on the processing

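Of 19 synthetase genes called in normal dogs, 7 were called with normexp, 1 with slide as a block and 12 to 20 when dogs were left out in turn (12 without normal dog 3). Of 2 called in mutants, 1 was called with probes above background on all 20 arrays (which drops AARS for its missing spot), without a filter, with no replicate block or with normexp, 4 with the mean of probes, 0 with the slide block and 1 to 2 without single dogs. In PBS eyes the count of 0 became 0 to 13. Cytosolic rises in mutants (1) were 0 with the all-array filter and the slide block, and cytosolic falls (0) were 1 with the mean of probes. Mitochondrial falls in mutants (1) were 2 with the mean of probes, 0 without a filter, with no replicate block, with normexp or with the slide block, and 0 to 1 without single dogs (0 without mutant dogs 1, 3 or 4). Cytosolic rises in normal dogs (12) were 6 with normexp, 1 with the slide block and 10 with no replicate block. Mitochondrial rises (3) were 1 with no replicate block, 0 with normexp or the slide block and 0 to 5 without single dogs (5 without normal dog 1, 0 without normal dogs 3 or 4, 1 without normal dog 5). Mitochondrial falls (2) were 1 with the all-array filter, deposited values, no filter, no replicate block or quantile normalization, 0 with normexp or the slide block and 1 to 2 without single dogs (1 without any single dog other than mutant dog 3 or normal dogs 4 or 5). The pairing of eyes through the replicate block changed no other count by over 1.5 times. The cytosolic minus mitochondrial median of the fitted changes was 0.28 in mutants and -0.051 with normexp. In normal dogs it was 0.34, with 0.12 from the deposited values, and it was 0.14 within slide 3, against PBS mutant eyes. Normexp moved the median of all probes to 0.17 in mutants and 0.09 in normal dogs, and the cytosolic medians were then -0.03 and 0.39. Signs turned for EARS2 in mutants (0.0043) and MARS2 in normal dogs (0.13) with normexp. Within slide 3, CNTF normal minus PBS mutant, the difference was negative for HARS (-0.054), LARS (-0.027), MARS (-0.063), QARS (-0.12), SARS2 (-0.20), VARS (-0.23) and YARS (-0.21). That difference mixes treatment with genotype and is no reading of normal dogs alone. The cause was not tested. AARS kept its sign, at 1.30 to 1.69 in mutants and 1.65 to 2.55 in normal dogs, where 1.65 is the slide 3 difference. A block across genotypes was not run, since the dogs differ. Slides nearly coincide with groups, so treatment and slide cannot be told apart except within slide 3, where treatment and genotype differ together. Dim probes such as MARS2 are near background, which limits them.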
